A study of Saccharomyces cerevisiae with 14 samples.

Results

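The effect of metformin on the transcriptome of stationary-phase budding yeast was measured in 6 libraries of a series of 14, chosen by their labels: 3 from stationary cultures that had received 50 mM metformin and 3 from stationary cultures that had received none. All cultures were of the same haploid MATa strain of Saccharomyces cerevisiae. Its labelled genotype combines the deletions lyp1D, ura3D0 and his3D1 with a kanMX4 marker at his3D, carries LEU2, has an RFP fusion at PDC1 marked with CaURA3MX4, and replaces CAN1 by SpHIS5 under the STE2 promoter. Individual colonies were grown for 24 h in 10 mL of synthetic complete medium at pH 4 and 30 °C with shaking at 200 rpm. These precultures started 50 mL cultures, with or without the drug in the same medium, at an optical density of 0.05. Ribosomal RNA was removed from the total RNA before directional libraries were prepared. The labels do not give the age of the stationary cultures and do not tie a library to a colony, and the p-values therefore reflect the spread among these particular libraries, which may be technical. The remaining 8 libraries, 4 with metformin and 4 without, came from exponential cultures and serve here for the spread and for the comparison between phases.

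Metformin is a biguanide drug for type 2 diabetes that is best known in animals as an inhibitor of mitochondrial complex I and an activator of AMPK. Budding yeast has no proton-pumping complex I and passes electrons from NADH to ubiquinone through single-subunit dehydrogenases, and its AMPK is Snf1. In stationary phase the cells have used up glucose, live by respiration on stored and excreted carbon, make few ribosomes and depend on defences against oxidants, among them the thioredoxin system, in which thioredoxin reductase passes electrons from NADPH to thioredoxin and on to peroxidases.

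The 6 stationary libraries held 43897221 to 55864799 gene counts each. Protein-coding genes took 29.1% ± 3.94 of them with metformin and 30.6% ± 2.73 in controls (SD, n = 3 each, exact two-sided permutation p = 0.6), which left 12819230 to 18627098 protein-coding counts per library. The rest was mainly small structural RNA, including SCR1, the RNA of the signal recognition particle, at 34.6% ± 2.92 and 32.5% ± 1.66. Reads that fell on no feature took 3.03% ± 0.117 of reads with metformin and 3.75% ± 0.492 in controls (SD, n = 3 each, exact permutation p = 0.1, the smallest that 3 libraries against 3 allow), and their part in the results was not tested. Of the deleted loci, URA3 had 0 counts in all 6 libraries, where 3 counts is the limit that a count of 0 allows, while HIS3 had 5, 14 and 7 counts with metformin and 7, 7 and 18 in controls. LYP1 had 37, 40 and 34 counts with metformin and 50, 36 and 26 in controls. The 6 markers of stationary phase were all higher in stationary than in exponential controls, as were 42.4% of all features tested. Stationary markers summed to 9491 to 16740 CPM (counts relative to a library size adjusted by TMM, a scaling of edgeR that leaves out the most extreme features) with metformin and 10920 to 15290 CPM in controls, so by these genes both groups were in stationary phase. In a principal component analysis of the 6 libraries the first component held 46.3% of the variance and did not separate the groups. The second component held 21.6%, and on it the metformin libraries lay at -10.16, -1.49 and -13.4 and the controls at 12.3, 13.9 and -1.13, groups that did not overlap (exact two-sided permutation p = 0.1, the smallest possible). Control library 3 lay at the far end of the first component, at 23.04, next to metformin library 3 at 10.63. Several results below are also given without control library 3.

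Few transcripts differed between stationary cultures with and without metformin. Of 6097 features tested, TRR1, GPX2 and YLR108C passed an adjusted p of 0.05 in edgeR's quasi-likelihood test and none was lower, so that 0.0492% of features were called. TRR1 is the cytosolic thioredoxin reductase and GPX2 is a glutathione peroxidase that yeast reduces with thioredoxin, while YLR108C encodes a protein of unknown function. At an unadjusted p under 0.05 there were 340 features higher with metformin (5.58%) and 150 lower (2.46%). This split depended on the scaling: with no scaling beyond the total count, which shifted the median of all features by -0.145, it was 41 higher and 322 lower. The expression of 500 features was higher in every metformin library than in every control library (8.2%), and of 180 lower (2.95%). The median log2 fold change over all features was 0.01. Other tests of the same counts called more: DESeq2 called 47 features (0.771%), limma-voom 7 (0.115%) and edgeR with no scaling 5 (0.082%, of which 2 were higher and 3 lower), and TRR1 and GPX2 were among the calls of all 3. Below, called and passed refer to edgeR with TMM, all 14 libraries and group as the only term, unless another test or setting is named.

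TRR1, at chrIV:1183299-1184258 on the plus strand of R64, had 84.4, 60.2 and 82.1 CPM in the metformin libraries, against 34.7, 35.3 and 39.4 CPM in the controls. All 3 metformin libraries lay above all controls, and metformin library 2 was the lowest of its group. The edgeR log2 fold change came to 1.05 with an SE of 0.12 (adjusted p = 0.00213), a 2.07-fold difference with a 95% interval of 1.77 to 2.42. This interval and those below use a normal approximation, which makes them narrower than the quasi-likelihood test would give. The controls varied little, at 36.5 ± 2.58 CPM (SD, n = 3). The call held under each of the 6 omissions of a stationary library, with adjusted p between 3.2e-05 and 0.0313, and was lost only where the 6 stationary libraries were fitted alone, at 0.126.

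GPX2, at chrII:707528-708016 on the plus strand, had 39.0, 22.4 and 31.4 CPM with metformin, against 9.41, 11.1 and 16.2 CPM in controls. The groups did not overlap, and here too metformin library 2 was the lowest of the 3 with the drug. On the log2 scale it was 1.34 higher (SE 0.21, adjusted p = 0.0355 by edgeR), or 2.53-fold with a 95% interval of 1.91 to 3.36. The adjusted p rose above the threshold without control library 1 (0.144), control library 2 (0.208), metformin library 1 (0.167) or metformin library 3 (0.0902). GPX2 was also not called with the stationary libraries alone (0.383), with a filter of at least 1 CPM in 3 libraries or without exponential metformin library 3.

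YLR108C, at chrXII:366667-368124 on the minus strand, had 51.5, 41.6 and 48.5 CPM in metformin libraries, against 27.3, 28.0 and 27.7 CPM in controls. The control values were nearly equal and all lay below the lowest metformin library. The edgeR estimate was 0.77 on the log2 scale (SE 0.11, adjusted p = 0.0206), or 1.70-fold with an interval of 1.47 to 1.98. As for GPX2, the call was lost without control library 1 (adjusted p = 0.103), control library 2 (0.128), metformin library 1 (0.167) or metformin library 3 (0.0633). YLR108C was also not called with no scaling beyond the total count or with the stationary libraries alone (0.126).

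The upstream regions of the 3 genes were searched for elements of the kind bound by Yap1, the main activator of the yeast response to oxidants. Each holds, within 300 bases before its start codon, 1 of the 2 forms searched, and no single form is in all 3. These sites are shown because Yap1 is a known regulator of thioredoxin genes, together with that of SRX1, the gene of sulfiredoxin, which repairs over-oxidised peroxiredoxin and had the largest log2 fold change among the uncalled genes of the 10 higher ones with the lowest p and no overlap. Sequences come from the R64 genome, run 5′ to 3′ on the strand of the gene and show the element in capitals.
GPX2 (chrII:707257-707285, plus strand): tatctagacaaTTAGTAAttccgatgaca
TRR1 (chrIV:1183096-1183124, plus strand): ttagcttctccTTAGTCAtggagaaaaaa
YLR108C (chrXII:368276-368304, minus strand): tcttttcttgaTTACTAAtagacaacata
SRX1 (chrXI:278119-278147, plus strand): cgccattatttTTAGTCAttacagtagcc
GPX2 and YLR108C carry TTACTAA, searched on both strands, and so does 7.81% of 5994 upstream windows of that length. TRR1 and SRX1 carry the variant TGACTAA, found in 3.69% of windows, and the share of windows with either form was not computed. The same letters also precede genes that edgeR did not call without the replicate block: TGACTAA is found upstream of HPC2 and GPX1, with log2 fold changes of -0.26 and -0.32, and TTACTAA upstream of TRX2, SKN7 and CIP1. Neither form precedes INO1, ISU2, MET10, ADY2, MPC2 or BIO3, which are also among the 10 higher genes with the lowest p and no overlap. A match to either form describes its letters and does not show that a factor binds there. The genes of Yap1 itself and of its partner Skn7 were not called: YAP1 had 172.5, 164.0 and 182.1 CPM with metformin and 188.3, 171.3 and 181.6 CPM in controls (log2 fold change -0.06), and SKN7 was at -0.02 (0.04 without control library 1).

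**Figure D1:**
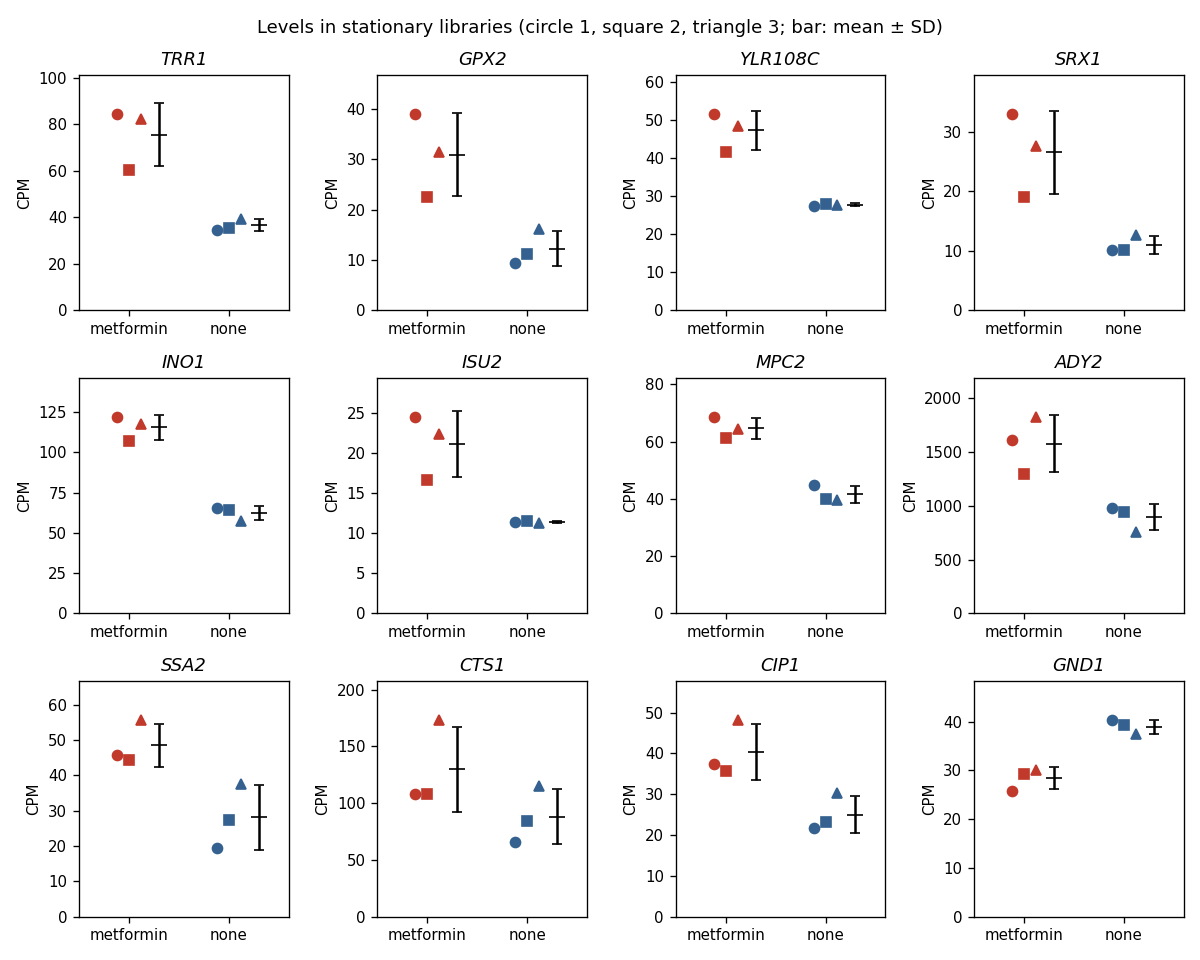
Levels in CPM of 12 genes in the 3 stationary libraries with metformin (red) and the 3 without (blue), with replicate 1 as a circle, 2 as a square and 3 as a triangle, and the mean and SD as a black bar. For TRR1, GPX2 and YLR108C every red point lies above every blue one, and for GND1 every red point lies below.

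SRX1 had 33.0, 19.1 and 27.6 CPM with metformin, against 10.2, 10.1 and 12.7 CPM in controls. The groups did not overlap, and metformin library 2 was again the lowest with the drug. Its log2 fold change of 1.28 (SE 0.25) had an adjusted p of 0.0921 by edgeR and did not pass there. DESeq2 and limma-voom called it (adjusted p = 0.00123 and 0.0479). Among the other paralogs and partners of the called genes, none passed. TRR2, the mitochondrial thioredoxin reductase, had 47.4, 44.2 and 50.4 CPM with metformin and 45.9, 46.5 and 53.1 CPM in controls, groups that overlapped, and a log2 fold change of -0.04 whose sign turned to 0.03 without control library 3. The thioredoxin TRX1 was at 0.04 (-0.12 with no scaling beyond the total count) and TRX2 at 0.32. The peroxidase GPX1 was at -0.32 and HYR1, the peroxidase that senses peroxide for Yap1, at -0.08 (0.02 without metformin library 2).

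The thioredoxin and peroxiredoxin genes had 10 of 13 members with a positive log2 fold change, where 53.8% of all tested features were positive. Their median was 0.10, and -0.06 with no scaling. TRR1 was the only member called. TSA1, the major cytosolic peroxiredoxin, had 118.0, 123.5 and 122.7 CPM with metformin, against 82.4, 85.0 and 102.0 CPM in controls, groups that did not overlap, with a log2 fold change of 0.43 and an adjusted p of 0.197.

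The detoxification genes listed as targets of Yap1 and Skn7 were positive for 22 of 25, with a median of 0.19 and with TRR1 and GPX2 called. At an unadjusted p under 0.05, 7 of 25 were higher and 0 lower, where 5.58% of all features were higher and 2.46% lower. Every metformin library lay above every control for 8 members and below for 1, against 8.2% and 2.95% of all features. Log2 fold changes in the list ran from -1.85 to 1.34. The list was written with earlier results of these data known. With no scaling the median was 0.02. Relative to the mean of the controls, the list's median log2 level was 0.24, 0.16 and 0.33 in the metformin libraries and -0.04, -0.02 and 0.02 in the controls. These groups did not overlap, and neither did those of lists with other functions, such as TOR signalling and nitrogen-regulated permeases. The glutathione genes were positive for 20 of 24, with a median of 0.13 that turned to -0.03 with no scaling, and GPX2 was the one call. DUG1, a dipeptidase of glutathione breakdown, had a log2 fold change of 0.37 (adjusted p = 0.254).

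Of 6 genes for superoxide dismutases, catalases and cytochrome c peroxidase, 5 were positive, none was called and the median was 0.29. SOD1, the copper-zinc superoxide dismutase, had 587.9, 447.4 and 666.6 CPM with metformin and 405.2, 368.0 and 491.7 CPM in controls. Those groups overlapped, because metformin library 2 lay below control library 3, although the metformin library was higher in each of the 3 same-numbered pairs. The log2 fold change was 0.43 (adjusted p = 0.36). CCP1, the cytochrome c peroxidase of the mitochondrial intermembrane space, was at 0.53 (adjusted p = 0.406), and the 10 regulators of the oxidative stress response had a median of -0.01 with 0 of 10 under an unadjusted p of 0.05.

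**Figure D2:**
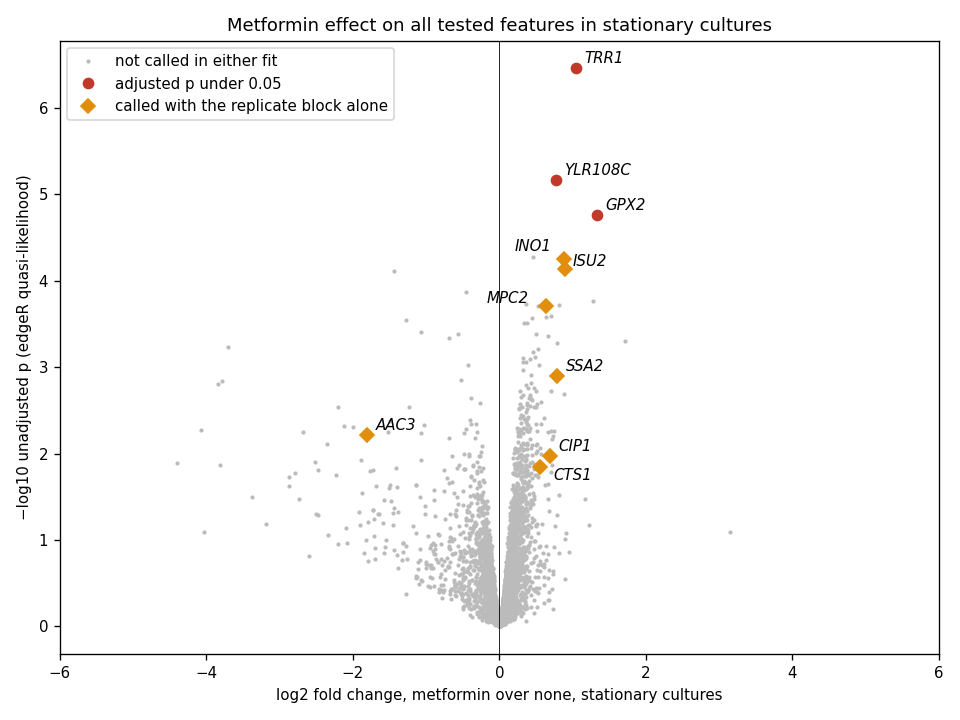
Log2 fold change in stationary cultures, metformin over none, against −log10 of the unadjusted p of edgeR's quasi-likelihood test for 6097 features. Red circles mark the 3 features with an adjusted p under 0.05 and orange diamonds the 7 called when same-numbered replicates were blocked. AAC3 is the sole marked feature to the left of 0.

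Same-numbered libraries correlated positively in their deviations from the group means, though some libraries correlated more with another number. With the replicate number as a block within each phase edgeR called 10 features, 0.164% of those tested, of which 9 were higher and 1 lower with metformin. These were the 3 above and MPC2, INO1, SSA2, CTS1, ISU2, CIP1 and AAC3. In edgeR with all libraries and no block, none of these 7 passed. DESeq2 without a block called INO1 (adjusted p = 0.000219), ISU2 (0.000434), MPC2 (0.00227), SSA2 (0.0187) and AAC3 (0.0269). It did not call CTS1 (0.292) or CIP1 (0.203). Of these genes, limma-voom called INO1 alone (0.0395). The blocked adjusted p was 0.00873 for TRR1, 0.0302 for GPX2 and 0.0438 for YLR108C.

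INO1, the inositol-3-phosphate synthase that starts inositol synthesis, had 121.9, 107.2 and 117.7 CPM with metformin, against 65.3, 64.4 and 57.7 CPM in controls. All 3 metformin libraries lay far above all controls. Its log2 fold change was 0.89 (SE 0.15), with an adjusted p of 0.0668 and a blocked one of 0.0199. Its upstream region holds a pair of matches to CATGTG, the core of the element through which Ino2 and Ino4 activate phospholipid genes, which is found in 7.14% of windows when both strands are searched, and these are shown with the element in capitals.
INO1, far site (chrX:136160-136187, minus strand): gctaaatgcggCATGTGaaaagtattgt
INO1, near site (chrX:136095-136122, minus strand): cttatttaattCACATGgagcagagaaa
YLR108C also has 2 matches to CATGTG, at chrXII:368400-368424 and chrXII:368365-368392. The list of inositol and phospholipid synthesis was positive for 22 of 24, and its median was 0.15. Its medians by library were 0.17, 0.09 and 0.08 with metformin and 0.00, 0.01 and 0.01 in controls, with no overlap, as in several other lists. At an unadjusted p under 0.05, 7 of 24 members were higher and 0 lower, against 5.58% and 2.46% of all features. Without the block edgeR called none of them. With no scaling the median was 0.02. CPT1, the cholinephosphotransferase, had 16.9, 16.7 and 17.0 CPM with metformin, against 14.1, 15.6 and 13.3 CPM in controls, a log2 fold change of 0.24 (adjusted p = 0.392).

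MPC2 is a subunit of the mitochondrial pyruvate carrier, the one that pairs with MPC1 in fermenting cells. It had 68.5, 61.2 and 64.4 CPM in metformin libraries, against 44.97, 40.0 and 39.6 CPM in controls, and the groups did not overlap. The log2 fold change was 0.64 (SE 0.13), with an adjusted p of 0.0921 and a blocked one of 0.0221. Its partner MPC1 was at 0.12 (-0.05 with no scaling) and MPC3, the subunit used in respiring cells, at 0.39 with an SE of 0.43. Per kilobase of gene, MPC3 had a level of 1029 CPM with metformin and 784.6 CPM in controls, against 165.9 and 106.5 CPM for MPC2.

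ISU2, a scaffold protein on which mitochondria build iron-sulfur clusters, had 24.5, 16.6 and 22.3 CPM with metformin, against 11.4, 11.5 and 11.3 CPM in controls. The groups did not overlap, the controls were almost identical, and metformin library 2 was the lowest of its group. Its log2 fold change was 0.89 (SE 0.16), with an adjusted p of 0.0668 and a blocked one of 0.0221. The paralog ISU1, the more abundant scaffold, was at 0.02, with a sign that turned in several settings (-0.15 with no scaling). The 2 genes are similar in sequence, and reads that cannot be told apart between them would have been lost in counting. The list of iron-sulfur cluster assembly had a median of 0.03 (-0.10 with no scaling).

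Among the chaperones, SSA2, a cytosolic Hsp70, had 45.6, 44.5 and 55.6 CPM with metformin, against 19.3, 27.2 and 37.7 CPM in controls. The groups did not overlap, but controls spanned a wide range, with control library 3 the highest. The log2 fold change was 0.79 (SE 0.20), with an adjusted p of 0.2 and a blocked one of 0.0438. Without control library 3 the unblocked edgeR value passed, at 0.0245, and DESeq2 on all libraries gave 0.0187. SSA1, a close paralog with which SSA2 can share reads, had 279.0, 263.7 and 319.6 CPM with metformin and 128.1, 164.8 and 233.1 CPM in controls (log2 fold change 0.71, adjusted p = 0.406), again with no overlap. In the Hsp70 list as a whole 8 of 14 were positive, and the median was 0.14, or -0.03 with no scaling. At an unadjusted p under 0.05, LHS1, an Hsp70 of the endoplasmic reticulum, was the 1 member that was lower, at -0.25. The upstream region of SSA2 holds a pair of matches to GAANNTTC, a palindromic pair of heat shock half-sites found in 11.5% of windows, shown in capitals.
SSA2, far site (chrXII:97696-97723, minus strand): tttttttctaGAACATTCcatcgaagat
SSA2, near site (chrXII:97649-97676, minus strand): aggttttgacGAAATTTCattcttaagc
Among other heat shock chaperones 20 of 28 were positive, and their median of 0.15 turned to -0.01 with no scaling. HSP82, the inducible Hsp90, had 252.0, 221.9 and 337.9 CPM with metformin and 126.6, 159.8 and 250.6 CPM in controls, groups that overlapped (log2 fold change 0.60, adjusted p = 0.798). HSC82, the constitutive Hsp90, was at 0.37 without overlap (adjusted p = 0.417).

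CTS1 encodes the chitinase that separates daughter from mother cells. It had 108.4, 107.8 and 172.9 CPM in metformin libraries and 66.0, 83.8 and 114.7 CPM in controls. The groups overlapped, as control library 3 exceeded metformin libraries 1 and 2, and library 3 was the highest in both groups. Its log2 fold change was 0.56 (SE 0.20), with an adjusted p of 0.406 and a blocked one of 0.0438. In a bulk sample, more cells expressing such a gene and more RNA per cell cannot be told apart.

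CIP1, an inhibitor of G1 cyclin-dependent kinase that acts in stress, had 37.3, 35.6 and 48.1 CPM with metformin, against 21.6, 23.1 and 30.2 CPM in controls. The groups did not overlap, and library 3 was the highest in both. The log2 fold change was 0.69 (SE 0.23), with an adjusted p of 0.378 and a blocked one of 0.0221. AAC3, the hypoxic form of the mitochondrial ADP/ATP carrier, was the single blocked call in the other direction. It was close to undetected, at 0.15, 0.17 and 0.73 CPM with metformin against 0.41, 1.24 and 1.97 CPM in controls, and the groups overlapped. Its log2 fold change was -1.80 (SE 0.56), with an adjusted p of 0.302 and a blocked one of 0.0438.

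**Figure D3:**
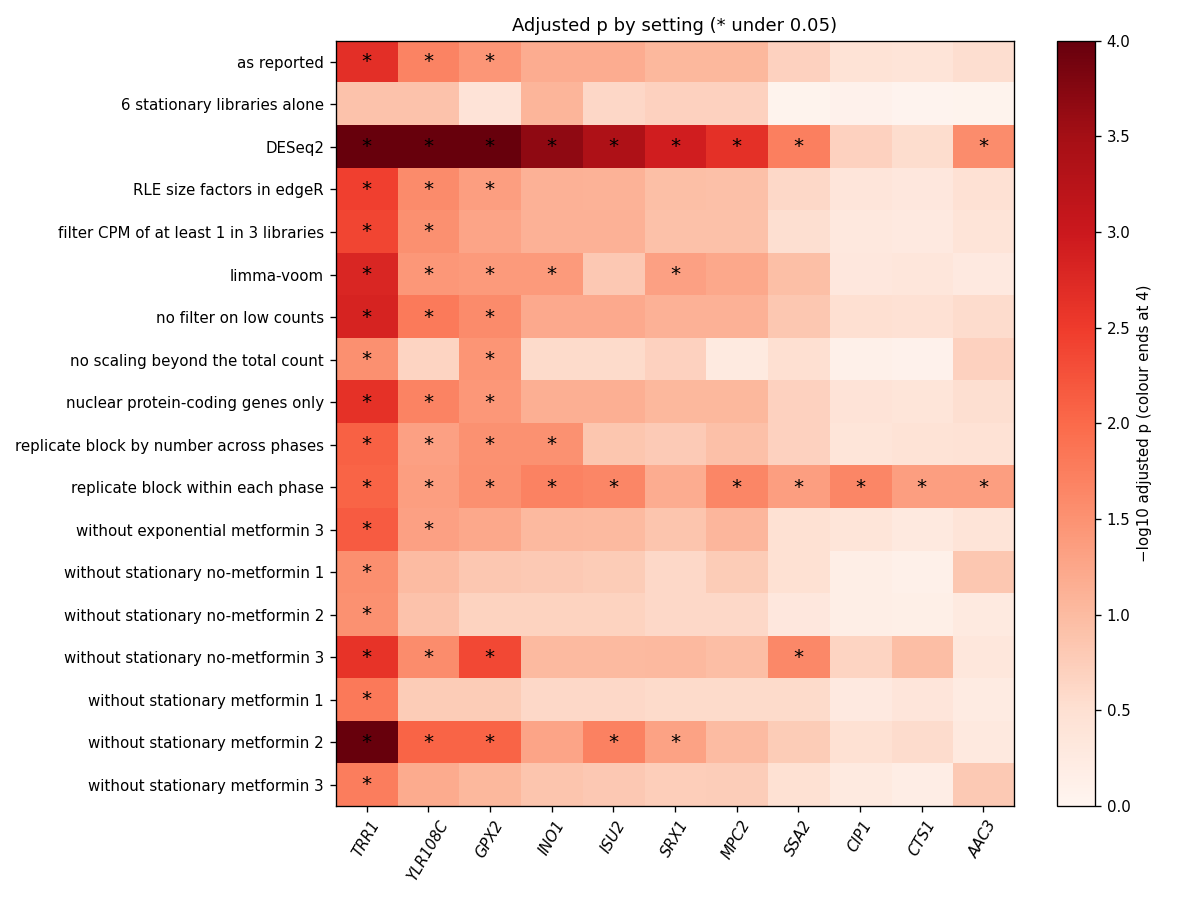
Adjusted p (as −log10, darker red for smaller p) of 11 genes in the fit as reported and in 17 other settings, with a star where it is under 0.05. TRR1 has a star in 16 of the 17 other settings, YLR108C in 11 and GPX2 in 10, and CTS1 and CIP1 only with the replicate block within each phase.

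No gene listed for acetate or respiratory metabolism passed in stationary cultures in edgeR with all libraries and no block. ADY2, an acetate permease, had 1613, 1296 and 1824 CPM in metformin libraries, against 983.8, 941.3 and 758.9 CPM in controls. The groups did not overlap, and edgeR gave a log2 difference of 0.82 (SE 0.16, adjusted p = 0.0921). DESeq2 and limma-voom called ADY2 (adjusted p = 0.000491 and 0.0395), and DESeq2 also called LSC2 of the tricarboxylic acid cycle. In exponential cultures, where ADY2 was far less expressed, it was also higher with metformin, at 0.98 (SE 0.17, adjusted p = 0.0455 by edgeR, where 0.0984% of features were called). The difference of the effects was -0.16 (adjusted p = 0.998). The genes of the glyoxylate cycle, gluconeogenesis and acetate use had 21 of 24 positive and a median of 0.24. Their medians by library, 0.22, 0.51 and 0.22 with metformin and 0.26, 0.18 and -0.46 in controls, overlapped, with control library 3 far below the other 5. YAT1, the outer mitochondrial carnitine acetyltransferase, was at 0.51 without overlap (adjusted p = 0.294).

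The tricarboxylic acid cycle genes had 15 of 17 positive and a median of 0.16 (0.00 with no scaling). In 7 of the 17 every metformin library lay above every control, where 8.2% of all features did so. LSC2, the beta subunit of succinyl-CoA ligase, had 69.0, 65.7 and 74.5 CPM with metformin, against 48.8, 55.2 and 58.1 CPM in controls (log2 fold change 0.37, adjusted p = 0.223). SDH3, a membrane subunit of succinate dehydrogenase, was at 0.36 (adjusted p = 0.406). Of the nuclear genes of the respiratory chain and ATP synthase 11 of 40 were positive, and the median of -0.06 turned to 0.06 without control library 3. The mitochondrially encoded proteins had 6 of 7 positive with a median of 0.31 and overlapping groups. COX1, a core subunit of cytochrome c oxidase, had 7273, 6581 and 7987 CPM with metformin and 5173, 6969 and 5494 CPM in controls, so that control library 2 lay above metformin library 2 (log2 fold change 0.31, adjusted p = 0.521). COX1 shares its region with maturase genes inside its introns, and reads that overlap both are ambiguous in counting. Reads of the mitochondrial genome took 4.60% ± 0.245 of counts with metformin and 4.26% ± 0.372 in controls (SD, n = 3 each, exact permutation p = 0.2). Genes of the Snf1 (AMPK) pathway had 9 of 14 positive, a median of 0.01 and no member under an unadjusted p of 0.05, and this sign turned in several settings (-0.11 with no scaling). The storage carbohydrate genes of trehalose and glycogen had 17 of 21 positive and a median of 0.17, again with no member under that p.

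**Figure D4:**
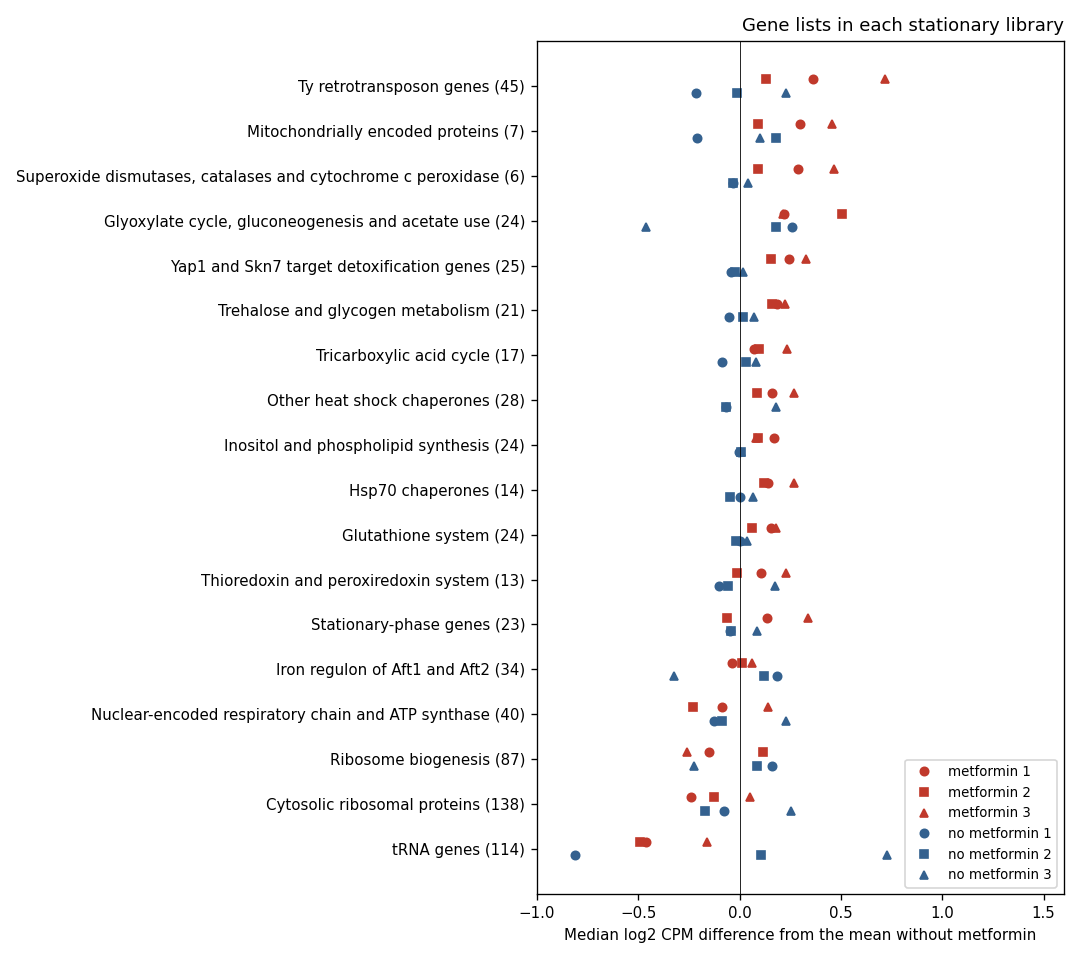
Median log2 CPM of gene lists in each stationary library, relative to the mean of the libraries without metformin, with metformin in red above and no metformin in blue below in each row and the number of tested genes in brackets. Red and blue do not overlap for the Yap1 and Skn7 targets, the trehalose and glycogen genes or the inositol and phospholipid genes. They also do not overlap for the glutathione genes, the Hsp70 chaperones or the superoxide dismutases, catalases and cytochrome c peroxidase. Only some lists are drawn, and lists of other functions also separate, among them TOR, Sch9 and Ras-PKA signalling and the nitrogen-regulated permeases. The blue triangle, control library 3, is at an end of some rows, including the glyoxylate, iron and tRNA lists.

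No lower value passed in edgeR with TMM, all 14 libraries and no block. GND1, the major 6-phosphogluconate dehydrogenase, which makes NADPH in the pentose phosphate pathway, had 25.8, 29.4 and 30.2 CPM with metformin, against 40.3, 39.3 and 37.4 CPM in controls. Every metformin library lay below every control. By edgeR the log2 difference was -0.45 (SE 0.09, adjusted p = 0.0921). DESeq2 and limma-voom called GND1 lower (adjusted p = 0.000102 and 0.0395). FYV7, a factor of ribosomal RNA processing, had 10.0, 7.57 and 9.65 CPM with metformin and 16.6, 12.8 and 14.4 CPM in controls (log2 fold change -0.69, adjusted p = 0.117). UPC2, an activator of sterol synthesis genes, had 50.3, 59.1 and 58.3 CPM with metformin and 95.2, 78.7 and 66.6 CPM in controls (log2 fold change -0.52, adjusted p = 0.214). The ergosterol list itself had a median of 0.01 and 17 of 30 positive, and its sign turned in several settings (-0.12 with no scaling). GND1, FYV7 and UPC2 were among the 10 lower protein-coding genes with the lowest p, at least 10 CPM and no overlap. The rest of these 10 included CNM67 and SLK19, of the spindle pole body and of the kinetochore and spindle, and HPC2, of the complex that represses histone genes. The rest also held PET8, the mitochondrial carrier of S-adenosylmethionine, NUT1, a Mediator subunit, PIN2 and YOR389W. Their log2 fold changes ran from -0.42 in YOR389W to -0.26 in HPC2, with adjusted p of 0.16 to 0.294 by edgeR. Of these 10 genes beside GND1, DESeq2 called FYV7 (adjusted p = 0.00513), YOR389W (0.0187), UPC2 (0.0341) and HPC2 (0.038), and none of the rest. YJL218W, far below 10 CPM and named after its values were seen, had a lower unadjusted p by edgeR than GND1 (7.67e-05 against 0.000136). It had 0.26, 0.28 and 0.44 CPM with metformin and 0.67, 0.96 and 1.02 CPM in controls, without overlap. Its log2 fold change was -1.44 (adjusted p = 0.0668 by edgeR), and DESeq2 and edgeR with no scaling called it. PIN2 overlaps another annotated gene, and its reads may be split.

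MET10 and BIO3 completed the 10 with the lowest p and no overlap. MET10, a subunit of sulfite reductase, had 31.6, 34.9 and 36.3 CPM with metformin, against 25.8, 28.5 and 25.9 CPM in controls (log2 fold change 0.36, adjusted p = 0.0921). BIO3, an aminotransferase of biotin synthesis, had 27.8, 31.2 and 26.2 CPM with metformin, against 18.3, 18.9 and 21.7 CPM in controls (log2 fold change 0.53, adjusted p = 0.0921). Each value with the drug lay above each value without it. DESeq2 called both MET10 and BIO3 (adjusted p = 0.00169 and 0.00205), and limma-voom called neither (0.0945 and 0.0634).

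Genes for making ribosomes gave small negative medians. Of 138 cytosolic ribosomal protein genes 7 were positive, with a median of -0.11 that turned to 0.02 without control library 3, and none had an unadjusted p under 0.05. By library the list stood at -0.24, -0.12 and 0.05 with metformin and -0.08, -0.17 and 0.25 in controls, groups that overlapped. In ribosome biogenesis 2 of 87 genes were positive, and the median of -0.09 stayed negative in all 16 settings computed for it, from -0.22 to -0.02. By library this list stood at -0.152, 0.116 and -0.257 with metformin and 0.161, 0.0847 and -0.225 in controls, so these groups overlapped too. At an unadjusted p under 0.05, 1 of the 87 was lower, where 2.46% of all features were. NOP16, an assembly factor of the large subunit, had 61.3, 37.1 and 64.6 CPM with metformin, against 99.7, 66.3 and 77.2 CPM in controls (log2 fold change -0.58, adjusted p = 0.406). The 114 tested of 299 tRNA genes had a median of -0.53, which turned to 0.04 without control library 3, and their reads are largely lost where copies are identical.

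Ty elements are the retrotransposons of yeast, and the study's title names them. Of 91 genes inside annotated Ty elements 45 could be tested, 44 of these were positive, and the median was 0.41 (0.25 with no scaling). None was called, with or without the block, and 22 of 45 were higher at an unadjusted p under 0.05, where 5.58% of all features were. Genes inside Ty1 elements summed to 2793, 2222 and 3461 CPM in metformin libraries and 1760, 2046 and 2452 CPM in controls. The groups overlapped, because metformin library 2 lay below control library 3, while within each same-numbered pair the metformin library was higher. Ty2 genes summed to 222.3, 207.4 and 285.9 CPM with metformin against 173.6, 188.3 and 207.1 CPM in controls, where metformin library 2 lay barely above control library 3. Ty4 genes summed to 30.3, 31.1 and 33.7 CPM with metformin, against 27.4, 26.9 and 26.2 CPM in controls, without overlap. YDR261C-D, a Gag-Pol gene of a Ty1 element at chrIV:987534-992349, had 91.7, 81.2 and 107.5 CPM with metformin, against 56.8, 69.9 and 80.4 CPM in controls, groups separated by less than 1 CPM (log2 fold change 0.44, adjusted p = 0.249). Reads shared by several copies are left out of these counts, so Ty values are uncertain.

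The effect of metformin differed between the phases for 1 feature, TRR1, when the difference itself was tested (0.0164% of features). In exponential cultures TRR1 averaged 273.2 ± 7.07 CPM with metformin and 285.2 ± 15.5 CPM without (SD, n = 4 each). The log2 change there was -0.06 (SE 0.10), against 1.05 in stationary cultures. The difference was 1.11 on the log2 scale (SE 0.15, adjusted p = 0.0243 by edgeR). Without metformin TRR1 was lower in stationary than in exponential cultures by a log2 fold change of -2.97, so its level with the drug remained under that of growing cells. With the replicate block within each phase the adjusted p of the difference was 0.0542, and it was 0.061 with the block across phases. It also missed the threshold without control library 1 (0.142), control library 2 (0.151), metformin library 1 (0.0959) or metformin library 3 (0.0545). GPX2 was at -0.12 in exponential cultures, a difference of 1.46 that did not pass (adjusted p = 0.118), and YLR108C at 0.10, a difference of 0.67 (adjusted p = 0.228).

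For the iron regulon no difference between the phases passed. Metformin raised 6 features in exponential cultures, and beside ADY2 they were FIT2 and FIT3, mannoproteins of the cell wall that retain iron-bearing siderophores, FRE2 and FRE5, of the ferric reductase family, and ARN2, a siderophore transporter. These 5 were picked by that call, and in stationary cultures none of them was called. FIT3 had 434.5, 461.8 and 907.6 CPM with metformin and 1012, 1051 and 681.3 CPM in stationary controls, groups that overlapped, with a log2 difference of -0.61 (SE 0.28, adjusted p = 0.618) against 1.56 in exponential cultures. FIT2 was at -0.34 in stationary and 1.71 in exponential cultures, a difference of -2.05 that did not pass (adjusted p = 0.0567). For FIT3 the adjusted p of the difference was 0.101. FRE5, FRE2 and ARN2 were at -0.26, -0.01 and -0.10 in stationary cultures, the last 2 with signs that turned in some settings. Their differences between the phases did not pass either (adjusted p = 0.137, 0.101 and 0.139 by edgeR). The 34 genes of the regulon had a median of 0.01 in stationary cultures, with 17 positive, and 0.26 in exponential cultures. The stationary median turned to -0.11 without control library 3 and to -0.15 with no scaling.

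**Figure D5:**
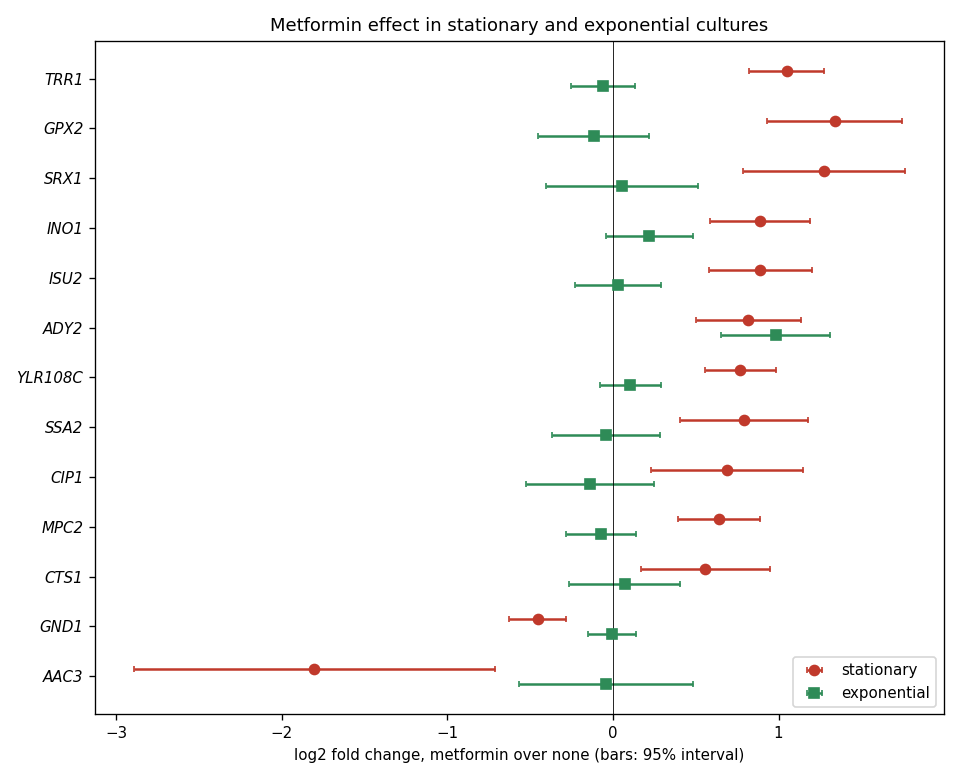
Log2 fold change of metformin over none in stationary (red circles) and exponential (green squares) cultures for 13 genes. Bars are 95% intervals by a normal approximation. TRR1 stands at 1.05 in stationary and -0.06 in exponential cultures with bars that do not overlap, while ADY2 stands at 0.82 and 0.98.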

How the data were processed

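Raw counts per feature were used as deposited by the authors. Reads were handled with STAR, SAMtools and HTSeq, per the submitters' processing notes. Their versions, the annotation, the build and the strandedness used in counting were not given in the sources used here. Each of the 6470 identifiers matched an R64 locus tag, and R64 supplied names, feature types, Ty membership and upstream sequence. HTSeq's 5 summary rows entered neither library sizes nor tests and held 6.32% ± 0.175 of reads in stationary libraries with metformin and 6.99% ± 0.659 in controls (SD, n = 3 each). Features were filtered with filterByExpr (minimum count 10, minimum total 15), then scaled by TMM, and edgeR 4.0.16 in R 4.3.3 fitted all 14 libraries with group as the term. Its two-sided quasi-likelihood test was adjusted over 6097 features by Benjamini-Hochberg, at a threshold of 0.05. Total gene counts were 43897221 to 59443572 per library, and the biological coefficient of variation was 13.5% for stationary metformin and 14.2% for stationary control libraries. Log2 CPM used a prior count of 2. Alternatives were RLE size factors, no scaling, DESeq2 1.42.0, limma-voom (limma 3.58.1), other filters, protein-coding genes alone, stationary libraries alone, replicate blocks and single omitted libraries.

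Replicate numbers come from the titles; the table's columns number the third stationary libraries 5. Deviations from group means correlated within same-numbered pairs at 0.259, 0.136 and 0.467 in stationary and at 0.302, 0.103, 0.624 and 0.232 in exponential cultures, all above 0.1. The numbers were therefore used as a block in alternative fits, while the fit behind the reported calls had group alone and no pairing. Some libraries correlated more with another number, as stationary metformin library 2 with control library 1 (0.35) and exponential metformin library 1 with control library 2 (0.525). No libraries agreed within sampling noise. On simulated counts for this comparison, with 6125 genes, 58.2% of 67 1.5-fold and 92.5% of 67 2-fold changes were recovered, with 12 false calls of 178. These counts were drawn independently for each library. Far more genes were changed than were called in the data, which makes the Benjamini-Hochberg cut looser. The recovered shares therefore do not give the share of real changes that was found here.

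Named were all called features, the 10 higher and 10 lower protein-coding genes with the lowest p among those with at least 10 CPM and no overlap, the genes called with the block, leading members of described lists, paralogs and partners of called genes, and altered loci. Genes named by the exponential calls (FIT2, FRE2, FRE5, ARN2) were added after their values were seen. The members and the gene lists were chosen with earlier results of these data known. One gene list and the result that rests on it are not reported here.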

Additional observations from a re-analysis of the deposited data

Results flagged for a closer look

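TRR1, the cytosolic thioredoxin reductase, was the single result for which the metformin effect in stationary cultures differed from that in exponential cultures by a test of the difference itself. The log2 difference between the effects was 1.11 (SE 0.15, adjusted p = 0.0243 by edgeR's quasi-likelihood test). It ranged from 0.92 with no scaling beyond the total count, where it missed the threshold (adjusted p = 0.137), to 1.26 without metformin library 2 (adjusted p = 0.000287). No test for outlying samples was run in groups of 3 libraries.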

How the results depend on the processing

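The count of 3 features called in stationary cultures became 0 with the 6 stationary libraries alone in edgeR, where 329 had an unadjusted p under 0.05, 47 (35 higher, 12 lower) with DESeq2, 7 (6 higher) with limma-voom, 5 (2 higher, 3 lower) with no scaling and 10 with the replicate block within each phase. Leaving out a stationary library gave 1 to 13 calls: TRR1 alone without control library 1 or 2 or metformin library 1 or 3, 13 (8 higher) without control library 3 and 8 without metformin library 2. The count of 1 feature that differed between phases became 12 with DESeq2, 2 with no scaling, 0 with the replicate block within each phase (568 at an unadjusted p under 0.05) and 0 with the block by number across phases (374), and 0 to 16 with a library left out. Of the genes called without the block, the block changed no call for the effect in stationary cultures.

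Some uncalled values near 0 changed sign. With no scaling, TRX1 was at -0.117, ISU1 at -0.145 and MPC1 at -0.045, where the median of all features was shifted by -0.145. ISU1 was at -0.00838 with the stationary libraries alone, and FRE2 at 0.0059 with no filter on low counts. With a stationary library left out, log2 fold changes ran from -0.080 to 0.035 for TRR2, -0.043 to 0.20 for TRX1, -0.23 to 0.018 for HYR1, -0.077 to 0.037 for SKN7, -0.057 to 0.11 for ISU1, -0.24 to 0.030 for ARN2 and -0.10 to 0.056 for FRE2. The cause was not tested. The setting without exponential metformin library 3 was chosen after seeing the data and gave 2 calls, without GPX2. Low counts, as in AAC3, and reads shared between copies limit single values.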

Other observations

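Several genes outside the comparisons above were chosen after their values were seen. SER3, a serine synthesis enzyme, had 52.4, 57.3 and 84.5 CPM with metformin and 174.4, 152.1 and 81.7 CPM in stationary controls, so that control library 3 fell within the metformin group (log2 fold change -1.07, adjusted p = 0.116 by edgeR). SRG1, the noncoding RNA transcribed across the SER3 promoter, had 35.9, 32.3 and 47.9 CPM with metformin and 129.0, 104.1 and 47.5 CPM in controls (log2 fold change -1.28, adjusted p = 0.0997). The annotated SRG1 overlaps SER3 on the same strand, and reads from the overlap are ambiguous. CHA1, the catabolic serine and threonine deaminase, had 15.7, 12.7 and 28.3 CPM with metformin and 94.9, 47.1 and 16.6 CPM in controls (log2 fold change -1.49, adjusted p = 0.294). In all 3, control library 3 was the lowest of the controls and lay among the metformin libraries. Without it, edgeR called all 3 lower with metformin, at log2 fold changes of -1.33 for SER3 (adjusted p = 0.00451), -1.59 for SRG1 (0.00141) and -1.91 for CHA1 (0.0174). SER3 and SRG1 were also called with DESeq2 (adjusted p = 0.00275 and 0.00123) and with no scaling (0.0345 and 0.0296), while CHA1 was not (0.114 and 0.2).

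The a-factor gene MFA2 had 49.2, 41.9 and 64.8 CPM with metformin, against 25.4, 32.3 and 38.1 CPM in controls, without overlap (log2 fold change 0.70, adjusted p = 0.234), and STE2, the receptor for the opposite pheromone, was at 0.32 (adjusted p = 0.346). MATa markers summed to 171.6 to 216.9 CPM with metformin and 133.2 to 172.8 CPM in controls. Markers of the other mating type summed to 41.7 to 47.0 CPM with metformin and 38.0 to 41.3 CPM in controls, and those of sporulating diploids to 100.7 to 116.6 CPM with metformin and 98.0 to 105.1 CPM in controls, with no marker called. TLC1, the RNA of telomerase, had 522.0, 425.9 and 665.4 CPM with metformin, against 327.6, 407.4 and 400.9 CPM in controls, without overlap (log2 fold change 0.51, adjusted p = 0.294). CAN1, labelled as replaced in this strain, kept 83, 106 and 106 counts with metformin and 71, 67 and 79 counts in controls.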
